A study of Mus musculus with 2 samples.

Results

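The Hox genes are the homeobox genes of 4 clusters, called HoxA, HoxB, HoxC and HoxD, which lie on mouse chromosomes 6, 11, 15 and 2. The family was chosen with earlier results of these data known. Its members were taken by name alone, as every gene symbol made of Hox, a cluster letter and a number, with no measured value used. This gave 39 genes of the 20660 genes that could be named on the array, measured by 43 of its 55680 probes. HoxA had 11 genes, HoxB 10, HoxC 9 and HoxD 9.

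Both groups were mice of the C57BL/6 strain, aged 8 to 12 weeks, that received a single injection of 120 mg/kg of 5-FU (5-fluorouracil, a drug that kills dividing cells) and were sacrificed on day 8. The groups differed in genotype, wild type (WT) or ESAM-KO, in which Esam, the gene of an adhesion molecule of endothelial and blood stem cells, is knocked out in the whole animal. Bone marrow of 3 mice per genotype was pooled and sorted for pre CFU-E, progenitors just before the erythroid colony-forming cell, by a gate that took Lin- cells that were c-Kit+ and Sca1-, CD41Lo and FCgRII/III-/Lo, and positive for endoglin and CD150. The RNA went through whole transcriptome amplification and Cy3 labelling, and 1 array was hybridised per genotype, so no value below has a replicate, an SD or a p-value, and genotype cannot be told apart from the pool, the sort or the amplification. An untreated group was not analysed here. In such bulk RNA, fewer cells of a type and less RNA per cell cannot be told apart either.

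Hox proteins are transcription factors that give cells their position along the body axis, and the genes of a cluster are used in the order in which they lie on the chromosome. They are numbered by paralog group, from group 1 at the 3′ end of a cluster to group 13 at its 5′ end, and genes with the same number in different clusters are related copies. In blood, genes of HoxA and HoxB are expressed in stem and early progenitor cells and are shut down as cells mature, with Hoxa9 and its cofactor Meis1 best known from the self-renewal of stem cells and from leukaemia. Trithorax proteins of the MLL complex keep the clusters active, and Polycomb proteins keep them silent.

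HoxA was the cluster with the most genes measured on these arrays. Of the 39 Hox genes, 16 were well above background in WT and 15 in ESAM-KO, by the flag that the scanner software sets for each spot, and 23 were so on neither. The 15 measured on both arrays were 38.5% of the family, where 61.1% of all named genes were, and 59.0% of the family was well above background on neither array, against 31.1% of all named genes. HoxA held 8 of its 11 genes on both arrays, HoxB 2 of 10, HoxC 2 of 9 and HoxD 3 of 9. Hoxa10, a gene of stem and early progenitor cells, and Hoxa4 were higher in ESAM-KO by more than 2-fold, and no Hox gene was lower by more than 2-fold.

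Promoter sequence is shown for 4 genes of HoxA on which the description turns. Hoxa10 was past 2-fold, Hoxa3 lay just inside it, Hoxa9 had probes that moved apart, and Hoxa11 was not detected on any of 10 spots. The 250 bases before each annotated start are given 5′ to 3′ along the gene, from the RefSeq promoter table of build GRCm38.p6, with each CG dinucleotide in capitals. All lie on the minus strand, and Hoxa10 has 2 annotated starts.
Hoxa3 (chr6:52213068-52213317, minus strand): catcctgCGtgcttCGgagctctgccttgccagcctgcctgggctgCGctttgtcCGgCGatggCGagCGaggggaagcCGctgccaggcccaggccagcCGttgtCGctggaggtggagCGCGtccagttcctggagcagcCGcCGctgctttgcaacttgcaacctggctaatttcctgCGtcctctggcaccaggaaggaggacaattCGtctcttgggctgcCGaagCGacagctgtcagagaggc
Hoxa9 (chr6:52227371-52227620, minus strand): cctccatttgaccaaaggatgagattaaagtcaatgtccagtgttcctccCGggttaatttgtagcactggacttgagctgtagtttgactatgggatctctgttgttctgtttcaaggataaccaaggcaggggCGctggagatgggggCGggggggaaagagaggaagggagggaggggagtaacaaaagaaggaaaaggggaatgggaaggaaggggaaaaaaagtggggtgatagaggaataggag
Hoxa10 (chr6:52234940-52235189, minus strand): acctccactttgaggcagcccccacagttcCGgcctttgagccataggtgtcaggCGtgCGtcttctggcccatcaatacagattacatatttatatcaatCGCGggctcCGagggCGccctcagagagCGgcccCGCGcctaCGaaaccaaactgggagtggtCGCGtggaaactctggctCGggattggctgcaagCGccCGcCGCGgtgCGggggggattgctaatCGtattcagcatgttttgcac
Hoxa10 (chr6:52240855-52241104, minus strand): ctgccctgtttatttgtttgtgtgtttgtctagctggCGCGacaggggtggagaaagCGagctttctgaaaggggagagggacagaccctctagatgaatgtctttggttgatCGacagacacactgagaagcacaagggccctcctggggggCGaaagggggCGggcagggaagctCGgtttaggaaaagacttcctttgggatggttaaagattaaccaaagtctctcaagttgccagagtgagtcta
Hoxa11 (chr6:52245811-52246060, minus strand): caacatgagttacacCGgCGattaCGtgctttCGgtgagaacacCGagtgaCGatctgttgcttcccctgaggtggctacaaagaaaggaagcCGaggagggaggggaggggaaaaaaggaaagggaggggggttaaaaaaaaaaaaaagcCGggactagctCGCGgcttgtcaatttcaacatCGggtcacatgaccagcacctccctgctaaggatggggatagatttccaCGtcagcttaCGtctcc

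The Hoxa3 stretch held 18 CG dinucleotides, that of Hoxa9 held 3, those of Hoxa10 held 20 and 7, and that of Hoxa11 held 13. The table had 24 promoters of 22 of the 39 Hox genes, and Hoxa4 and most genes of HoxB and HoxC had no entry. The median over the 24 was 12.5 CG dinucleotides (lowest 2, highest 35), and the median over all 32851 promoters of the table was 6. Sorted by the array, the 11 promoters of Hox genes well above background on at least 1 array had a median of 20, and the 13 promoters of the other Hox genes had a median of 12. These ranges overlap, from 3 to 35 and from 2 to 24. The letters TGATNNAT, a pattern like the site that Pbx and Hox proteins bind together, were searched on both strands. They were present in 0 of the 11 promoters of detected genes and in 4 of the 13 others (Hoxa2, Hoxb1, Hoxb8 and 1 of the 2 promoters of Hoxd11), and in 7.68% of all promoters of this length. The pattern can itself hold a CG at its open positions. It was 1 of several patterns searched and had the widest split. CCAAT was in 7 of the 11 and 7 of the 13 (33.8% of all promoters). TATAAA was in 2 and 2 (12.4%), and TGACAG in 1 and 1 (15.9%), in the same order. GGGCGG was in 5 and 5 (32.7%), TTTATG in 1 and 4 (10.8%), and CACGTG in 2 and 2 (6.02%). The deposited arrays carry no measure of methylation or binding, so these are descriptions of the letters only.

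Intensity below is the scanner brightness of a probe after background subtraction, in arbitrary units. Ratios are ESAM-KO over WT on the log2 scale, after each array was set to its 75th percentile, 201.4 for WT and 251.1 for ESAM-KO. This scaling takes 0.32 off every unscaled log2 ratio. The value after ± is the error that the scanner software gives each spot, carried to the ratio. It covers the spot and not the animals, the sort or the amplification. Probes differ in how they bind, so a probe was compared only with itself on the other array. The lowest intensity well above background was 12.6 for WT and 13.2 for ESAM-KO.

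**Figure D1:**
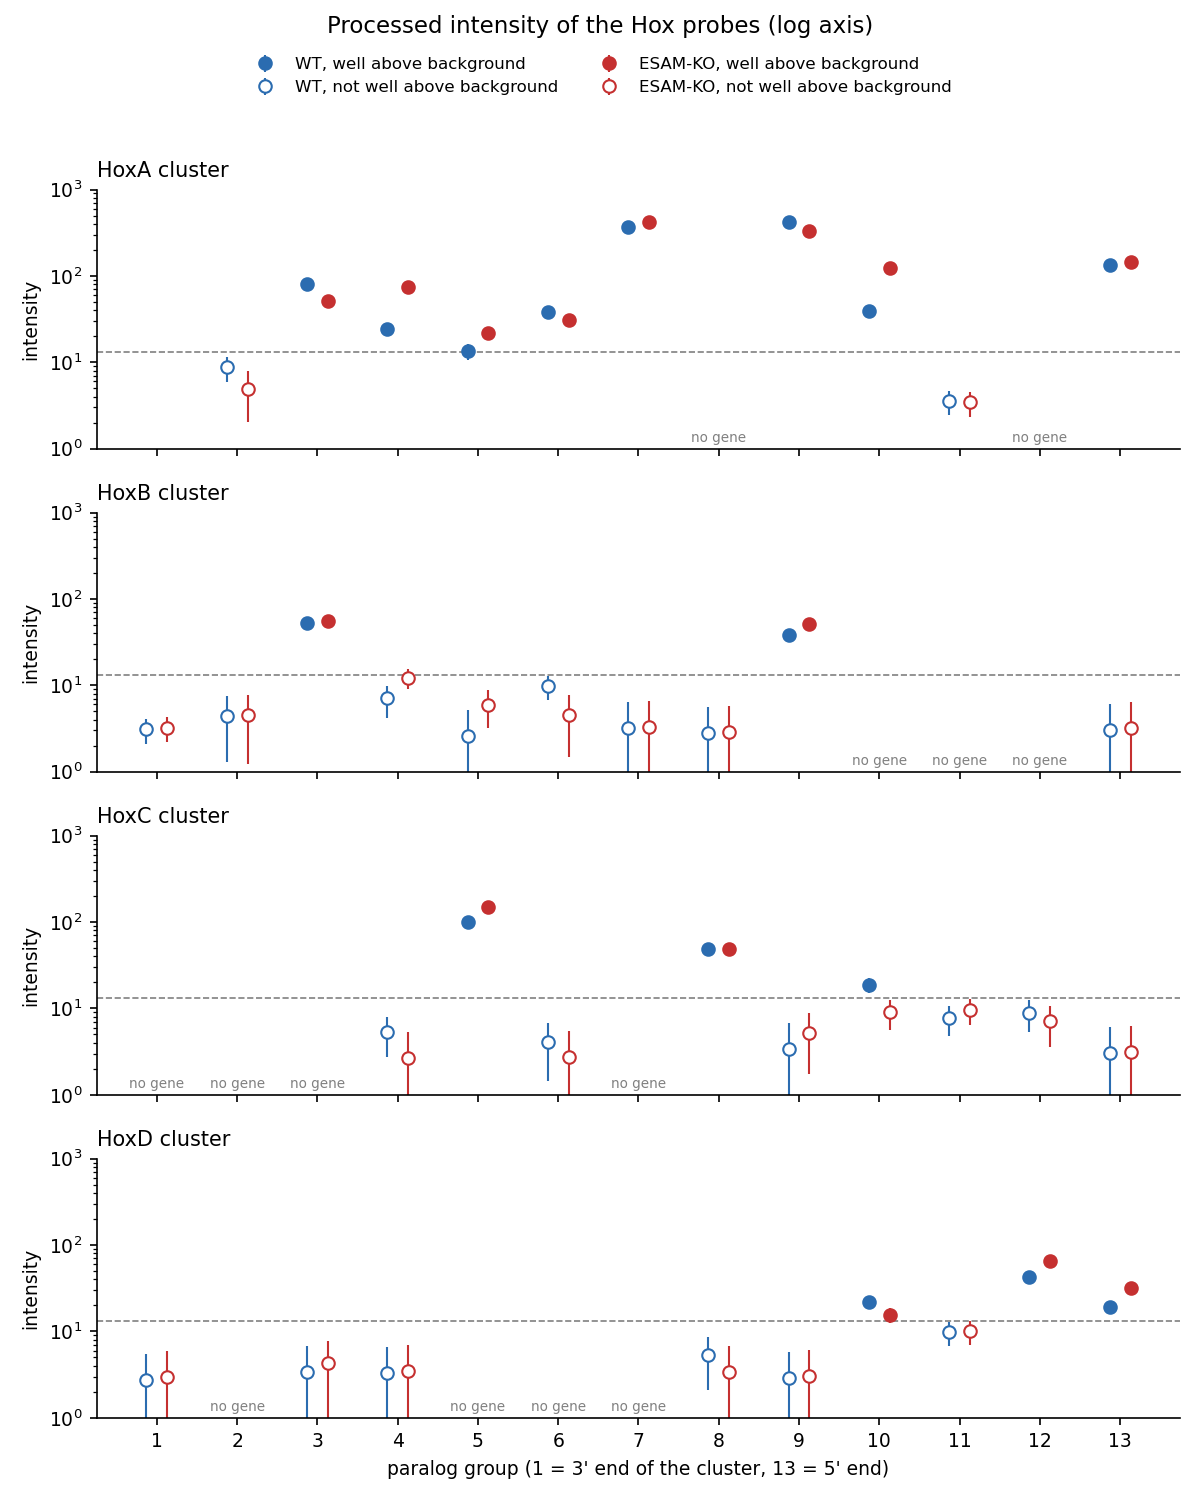
Intensity (log axis, arbitrary units) of the Hox genes in WT (blue) and ESAM-KO (red), by cluster and paralog group. Filled points are well above background, open points are not, bars are the scanner error (drawn down to the axis where they pass it), and the dashed line marks 13.2, the lowest intensity well above background in ESAM-KO. Filled points fill most of the HoxA row (8 of the 11 genes of the cluster on both arrays) and few places of the others (2 of 10, 2 of 9 and 3 of 9).

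Hoxa10 had the highest ratio among the Hox genes with one. Its only probe (NM_008263) had an intensity of 39.2 in WT and of 123 in ESAM-KO. The ESAM-KO reading was the higher one before any scaling, with a log2 ratio of 1.65, and after scaling the ratio was 1.34 ± 0.24, or 2.53-fold. Hoxa4 (NM_008265), of an anterior paralog group, had intensities of 24.3 and 73.6, in that order, and a ratio of 1.28 ± 0.27, or 2.43-fold. With the normexp correction and quantile normalization together in place of the processed intensity, the log2 ratio was 0.68 for Hoxa10 and 0.38 for Hoxa4, inside 2-fold. Under the other settings tried they stayed past 2-fold, between 1.15 and 1.65.

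These 2 genes were 12.5% of the 16 Hox genes with a ratio. Over all 14136 named genes with a ratio, 15.4% were past 2-fold, 6.99% higher and 8.43% lower in ESAM-KO. The Hox share past 2-fold was therefore near that of all genes, and the 2 higher genes are not a result about the family. The median log2 ratio of the 15 Hox genes measured on both arrays was -0.11, and over all 12615 named genes measured on both it was -0.02. Of the 15 Hox genes, 7 lay above 0 and 8 below it, numbers that became 11 and 4 without scaling between the arrays, 6 and 9 with each array set to its median, and 5 and 10 with normexp. Over all named genes measured on both arrays, 48.5% lay above 0.

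**Figure D2:**
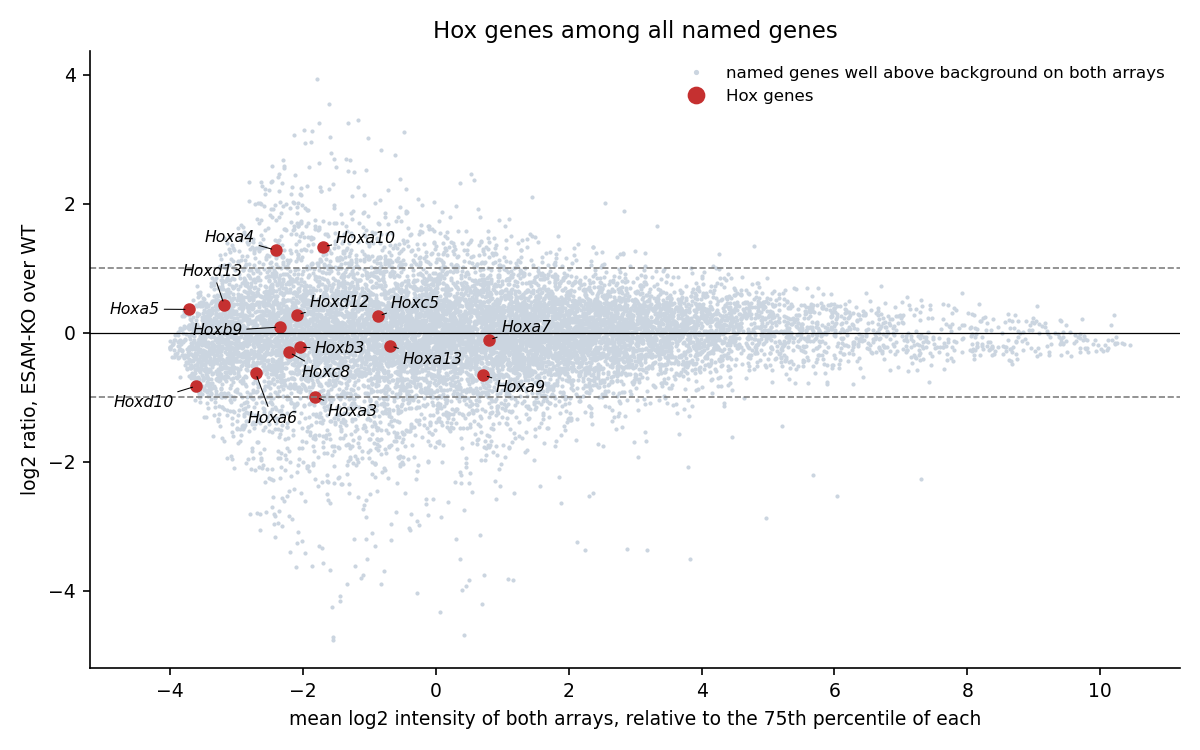
Log2 ratio of ESAM-KO over WT against the mean log2 intensity of both arrays, relative to the 75th percentile of each, for the 12615 named genes well above background on both arrays (grey) and the 15 Hox genes among them (red). Dashed lines mark 2-fold. The Hox genes lie in the dim to middle range of signal inside the cloud of all genes, with Hoxa4 and Hoxa10 above the upper line and Hoxa3 at the lower one, and with normexp no Hox gene lies past 2-fold.

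The other genes of HoxA moved in both directions. Hoxa3 (NM_010452), a gene of the pharyngeal arches, thymus and parathyroid, gave 81.0 in WT and 50.6 in ESAM-KO. Its ratio was -0.996 ± 0.22, 1.99-fold lower. It lay just inside the 2-fold criterion, passed it with each array set to its median (-1.13), and fell further inside without scaling (-0.68) and with normexp (-0.55). Hoxa3 and Hoxa4 are neighbours, and their probes moved apart. The RefSeq span of Hoxa3 also covers Hoxa4, Hoxa5 and Hoxa6, and the files do not say in which exon a probe lies, so transcripts shared by these genes cannot be assigned.

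Hoxa5 (NM_010453), which in blood is linked with the choice between myeloid and erythroid fate, gave 13.5 in WT and 21.7 in ESAM-KO. Its WT reading was close to the lowest intensity well above background, and its ratio of 0.36 ± 0.38 was within the scanner error. Hoxa6 (NM_010454) read 38.0 and 30.9, a ratio of -0.62 ± 0.27. Hoxa7 (NM_010455), a gene of early blood progenitors, read 364 and 420, and its ratio of -0.11 ± 0.20 was inside the scanner error and turned to 0.21 without scaling.

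Hoxa9, the member best known from blood stem cells, had 2 probes for the same transcript (NM_010456) that did not move together. The probe with the higher signal went from 415 in WT to 329 in ESAM-KO, a ratio of -0.65 ± 0.20. The other probe read 57.4 and 103, a ratio of 0.53 ± 0.22. Each lay outside its scanner error on an opposite side of 0, and their mean was -0.06, so no direction can be given for Hoxa9. Where the probes lie within the gene is not given in the sources used here.

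Hoxa13, a gene of the limb and the genital tract, also had 2 probes (NM_008264). The brighter gave 134 and 145 in WT and ESAM-KO, and the dimmer 15.7 and 14.7, with ratios of -0.20 ± 0.21 and -0.41 ± 0.42. Neither lay clear of the scanner error, and the ratio of the brighter probe was 0.12 without scaling. Hoxa2, which patterns the branchial arches, gave 8.72 in WT and 4.95 in ESAM-KO and was well above background in neither.

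Hoxa11 (NM_010450), which patterns the forelimb and the uterus, was printed as 10 spots on each array. The WT spots read between 2.88 and 5.63 and the ESAM-KO spots between 3.03 and 4.15, with 0 of 10 well above background on each, although 2 of 10 on each were positive and significant by the weaker flag of the scanner software. Its antisense transcript Hoxa11os, which overlaps it, was measured on both arrays, with 84.9 for WT, 152 for ESAM-KO and a ratio of 0.52. The sources used here do not say whether the labelling kept the strand, and overlapping transcripts of opposite strands then cannot be told apart.

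**Figure D3:**
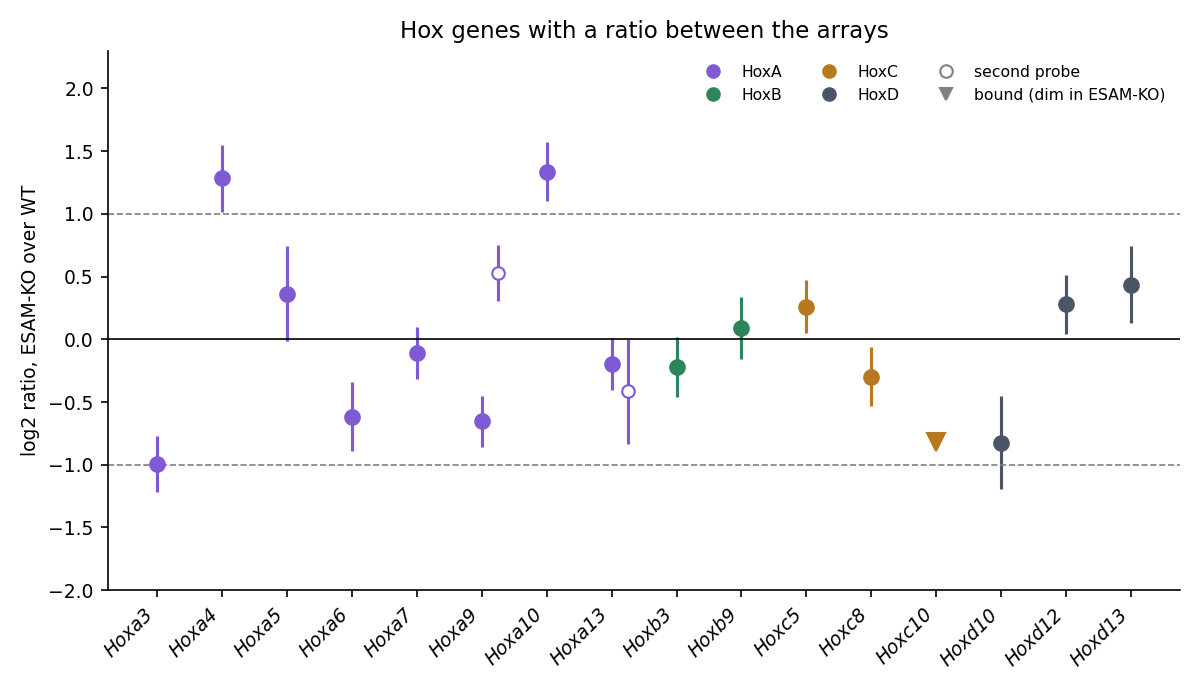
Log2 ratio of ESAM-KO over WT for the 16 Hox genes with a ratio, coloured by cluster, with the scanner error as bars. Open points are the second probe of Hoxa9 and Hoxa13, the triangle is the bound of Hoxc10, and dashed lines mark 2-fold. Hoxa4 (1.28) and Hoxa10 (1.34) lie above the upper line, Hoxa3 (-0.996) touches the lower one, and the 2 probes of Hoxa9 lie on opposite sides of 0, where without scaling every point would lie 0.32 higher.

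Most of the HoxB cluster was not well above background. Hoxb3 (NM_001079869), which acts with Hoxb4 in blood stem cells, went from 52.5 in WT to 56.2 in ESAM-KO, a ratio of -0.22 ± 0.24 that was 0.10 without scaling. Its other probe was not well above background. Hoxb9 (NM_008270), a gene of the thoracic skeleton, read 38.3 and 50.8, a ratio of 0.09 ± 0.25 that lay below 0 with each array set to its median (-0.04) and with normexp. Neither gene differed between the arrays by more than the scanner error.

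Hoxb4, known for expanding blood stem cells when overexpressed, gave 7.08 in WT and 12.2 in ESAM-KO, below the lowest intensity well above background on either array. Hoxb6, which has been linked with erythroid cells, read 9.85 and 4.58. No ratio is given for them. Hoxb1, Hoxb2, Hoxb5, Hoxb7, Hoxb8 and Hoxb13 were not well above background either. Hoxb1, a gene of the hindbrain, was printed as 10 spots, which read between 2.82 and 3.36 in WT and between 2.98 and 3.45 in ESAM-KO, with 0 of 10 well above background on each.

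In HoxC, 2 genes were measured on both arrays. Hoxc5 (NM_175730) went from 101 in WT to 151 in ESAM-KO, a ratio of 0.26 ± 0.21. Hoxc8 (NM_010466), a gene of the thoracic skeleton and motor neurons, read 48.1 and 48.7, a ratio of -0.30 ± 0.24 that was 0.02 without scaling. The intensities of Hoxc8 were nearly equal, and the scaling alone set its sign. Hoxc10 (NM_010462), a gene of the lumbar region and the hindlimb, was the only Hox gene measured on 1 array and not on the other. It went from 18.6 in WT to 9.14 in ESAM-KO, where it was not well above background, and was at least 1.77-fold lower in ESAM-KO, taking the lowest intensity well above background there as its upper limit. This bound on the log2 scale was -0.82 and shrank to -0.50 without scaling and to -0.12 with normexp. Hoxc4, Hoxc6, Hoxc9, Hoxc11, Hoxc12 and Hoxc13 were not well above background.

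The 3 genes of HoxD measured on both arrays all lay at the 5′ end of the cluster. Hoxd10 (NM_013554), which patterns lumbar motor neurons, went from 22.0 in WT to 15.5 in ESAM-KO, a ratio of -0.82 ± 0.37, or 1.77-fold lower. Hoxd12 (NM_008274) read 43.0 and 65.0, a ratio of 0.28 ± 0.24. Hoxd13 (NM_008275), a gene of the digits, read 19.0 and 32.1, a ratio of 0.43 ± 0.31 that was -0.03 with normexp. Hoxd10 and Hoxd13 lay close to the background and moved in opposite directions. The RefSeq spans of Hoxd10 and Hoxd11 overlap, and Hoxd11 was not well above background. The remaining genes Hoxd1, Hoxd3, Hoxd4, Hoxd8 and Hoxd9 were not well above background.

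By position, the share detected on both arrays was lowest in groups 1 to 4, at 25.0%. It was 45.5% in groups 5 to 8 and 43.8% in groups 9 to 13, against 61.1% of all named genes. The counts are small and uneven, with 2 of 3 genes detected in group 3 and 0 of 3 in group 11. Of the 12 genes of paralog groups 1 to 4, 3 were well above background on both arrays (Hoxa3, Hoxa4 and Hoxb3). Of the 11 genes of groups 5 to 8 it was 5, and of the 16 genes of groups 9 to 13 it was 7, with Hoxc10 besides in WT. Groups 2 and 11 were among those with no gene well above background. In group 10, the genes of HoxA, HoxC and HoxD were all well above background in WT, and their log2 ratios were 1.34 for Hoxa10, at most -0.82 for Hoxc10 and -0.82 for Hoxd10. The readings of the related copies of this group therefore did not share a direction. Each was read from 1 spot, and Hoxc10 and Hoxd10 lay close to the background. The scanner errors of their measured ratios were 0.62 and 0.37. In group 9 Hoxa9 and Hoxb9 were measured, and in group 13 Hoxa13 and Hoxd13, none of them past 2-fold.

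The cofactors that bind DNA with Hox proteins, the TALE family of Meis, Pbx and Pknox, were measured for 7 of 9 genes, and none was past 2-fold. Pbx2 went from 155 in WT to 382 in ESAM-KO, a ratio of 0.99, just inside the criterion. It passed 2-fold without scaling and with the 75th percentile taken over the detected probes. Meis1, the partner of Hoxa9, read 234 and 156, a ratio of -0.91 that passed 2-fold with each array set to its median. Meis1 and Pbx2 moved in opposite directions.

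Meis3 went from 793 in WT to 1456 in ESAM-KO at its brightest probe, a ratio of 0.56, but its other probes gave 0.19 and -0.23. Pknox1 had a probe at -0.31 (2429 in WT and 2450 in ESAM-KO) and another at -1.11. Pbx3 (82.2 and 94.2, a ratio of -0.12) and Pbx4 (265 and 291, a ratio of -0.18) were nearly level, and without scaling Pbx3, Pbx4 and Pknox1 lay above 0. Meis2 and Pknox2 were not well above background. The median of the 7 cofactors was -0.18.

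The activators of Hox transcription, of the MLL complex and upstream factors, had 11 of 15 measured genes well above background on both arrays, 0 past 2-fold, and a median log2 ratio of -0.03. Kmt2a, the gene of MLL itself, was also listed but could not be named on the array, so it was not measured. The Cdx genes, which switch on Hox genes in the embryo, and Rarg, a retinoic acid receptor, were not well above background. The Polycomb repressors had 15 of 16 on both arrays, 0 past 2-fold, and a median of -0.04. Ezh1 and Ring1 (-0.98 each) and Phc1 (0.98) lay just inside the criterion, although another measured probe of Ezh1 gave -0.38. Ezh1 and Ring1 passed it with each array set to its median, and Phc1 without scaling and with the percentile of the detected probes. The subunits of the main Polycomb complex, Eed (0.48), Suz12 (0.59) and Ezh2 (-0.01), were inside 2-fold under the settings tried.

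**Figure D4:**
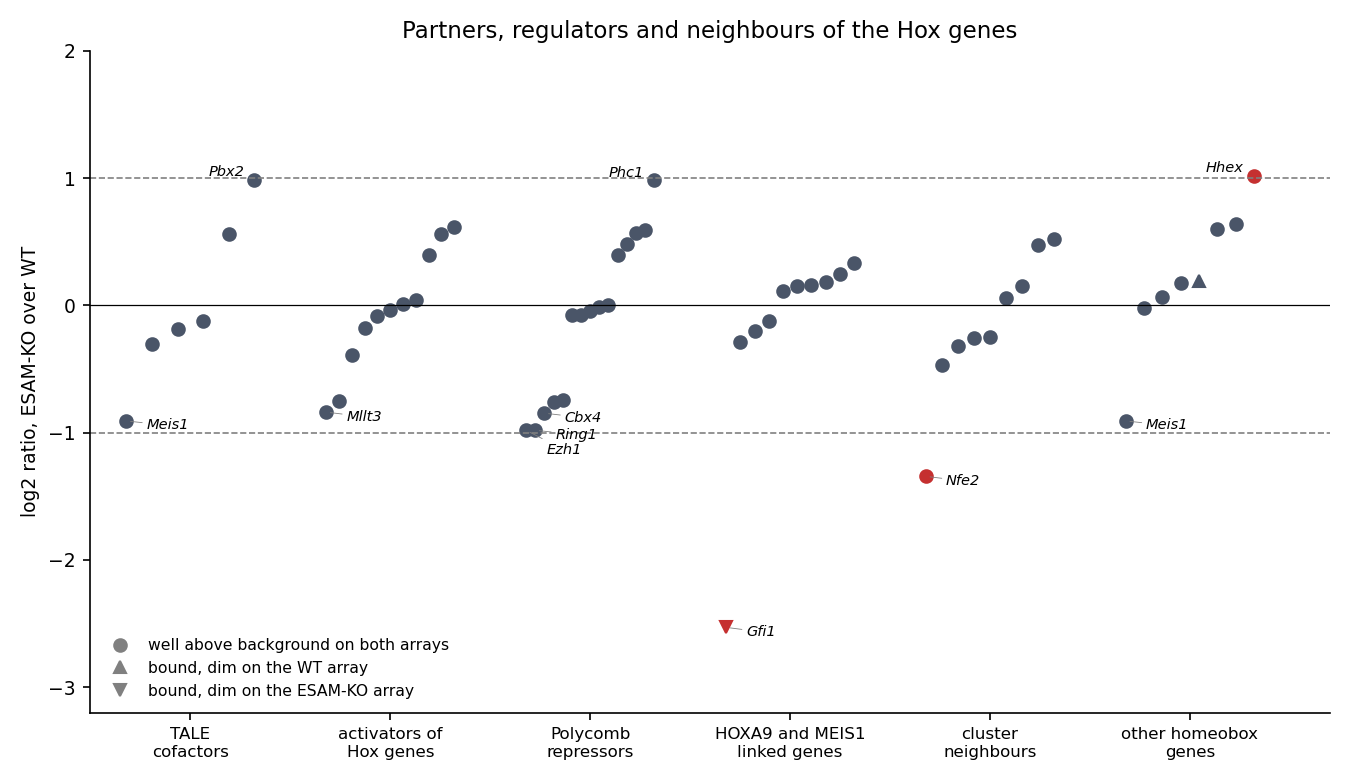
Log2 ratio of ESAM-KO over WT for members of 6 lists of partners, regulators and neighbours of the Hox genes that had a ratio, in increasing order within each list. Triangles are bounds, dashed lines mark 2-fold and red points lie past it. Gfi1 and Nfe2 lie below the lower line and Hhex just above the upper one, and no cofactor, activator or Polycomb gene lies past 2-fold, although Pbx2 and Phc1 do without scaling or with the percentile of the detected probes and Meis1, Ezh1 and Ring1 with each array set to its median.

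Of 12 blood genes linked with HOXA9 and MEIS1, 9 were measured on both arrays, with a median of 0.15, and 1 was past 2-fold. This was Gfi1, a transcriptional repressor needed for granulocyte development, which went from 60.9 in WT to 3.51 in ESAM-KO, where it was not well above background, at least 5.77-fold lower, a bound that was inside 2-fold with normexp. Myb (-0.29), Lmo2 (0.16), Mef2c (0.34) and Flt3 (-0.12) were inside 2-fold. Cd34, a stem cell antigen, had probes at 0.18 and -1.38. Of the 13 genes measured beside or inside the clusters, 9 were on both arrays, with a median of -0.25. Nfe2, an erythroid and megakaryocytic factor that lies near HoxC, read 1296 and 637, a ratio of -1.34, and was past 2-fold under all settings tried. Among 12 other homeobox genes, 8 were on both arrays, with a median of 0.12, and Hhex, a factor of early blood and endothelial progenitors, read 211 and 533, a ratio of 1.02 that was inside 2-fold with each array set to its median and with normexp.

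Markers of the sorted cells and of other bone marrow cells moved between the arrays as well. The probe of Esam gave 27.4 for WT and 20.6 for ESAM-KO, a ratio of -0.73 ± 0.31, and whether its probe lies in the deleted part is not given, so it does not settle the genotypes. The erythroid list had 8 of 8 genes on both arrays, with Gata1, Klf1, Epor and Tfrc inside 2-fold and 4 genes, among them Alas2, Slc4a1 and Hba-a1, lower by more than 2-fold. Its summed intensity was 97795 in WT and 35100 in ESAM-KO, most of it in WT from Hba-a1 (69472 and 18064). All sums here and below are of unscaled intensities. The ESAM-KO array was the brighter one, with a 75th percentile of 251.1 against 201.4 for WT. All 8 neutrophil markers were lower by more than 2-fold, with a median log2 ratio of -3.32 and a summed intensity of 48884 in WT and 8909 in ESAM-KO, and each of them was well above background on both arrays. Of the stem cell list, 5 of 10 were on both arrays and 2 were past 2-fold. In ESAM-KO, Hlf was 7.58-fold higher, which is its measured ratio to a WT reading of 14.8 that was not well above background. Ly6a, the gene of the Sca1 antigen that the gate excludes, was lower by at least 5.79-fold. Procr and Robo4 were not well above background. Mecom was not either at the probe used. Its other probe read 2.81 in WT, not well above background, and 32.7 in ESAM-KO, at least 2.09-fold higher. The summed intensity of the list was 3645 and 3722, nearly all of it from Kit (3414 in WT and 3326 in ESAM-KO).

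The remaining marker lists were mixed. Of the B cell list, 4 of 6 were on both arrays and 3 were lower by more than 2-fold, with sums of 521 and 222. The others were the megakaryocyte list (4 of 6 on both arrays, sums of 1530 and 1984), the macrophage list (4 of 5, 6809 and 7554), the mast cell and basophil list (0 of 5, 92.9 and 67.3), the T and NK cell list (2 of 5, 2000 and 2679), the endothelial list (3 of 5, 2374 and 2486) and the stroma list (2 of 8, 940 and 1188). Counting both directions, 3 genes of the megakaryocyte list, 1 of the T and NK cell list and 2 genes of each of the macrophage, mast cell and basophil, endothelial and stroma lists were past 2-fold. Mcpt8, Fcer1a, Cd3g, Klrb1c, Cdh5, Col1a1 and Prrx1, which mark basophils, T and NK cells, endothelium and stroma, were not well above background. Other members of these lists were at the probe used, among them Cd3e, Nkg7, Kdr, Pecam1 and Col1a2 on both arrays. Prss34 and Pdgfrb were so in WT only, and Ms4a2 in ESAM-KO only. Some sums came mostly from 1 probe, as with Csf1r (6554 in WT and 7310 in ESAM-KO) and Nkg7 (1833 and 2465). The same held for Kdr (2056 and 2345) and Col1a2 (756 and 1061). Hoxa9, Hoxa10 and Meis1 are expressed in stem and myeloid cells too, and the part of these cell types in the Hox values was not tested.

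**Figure D5:**
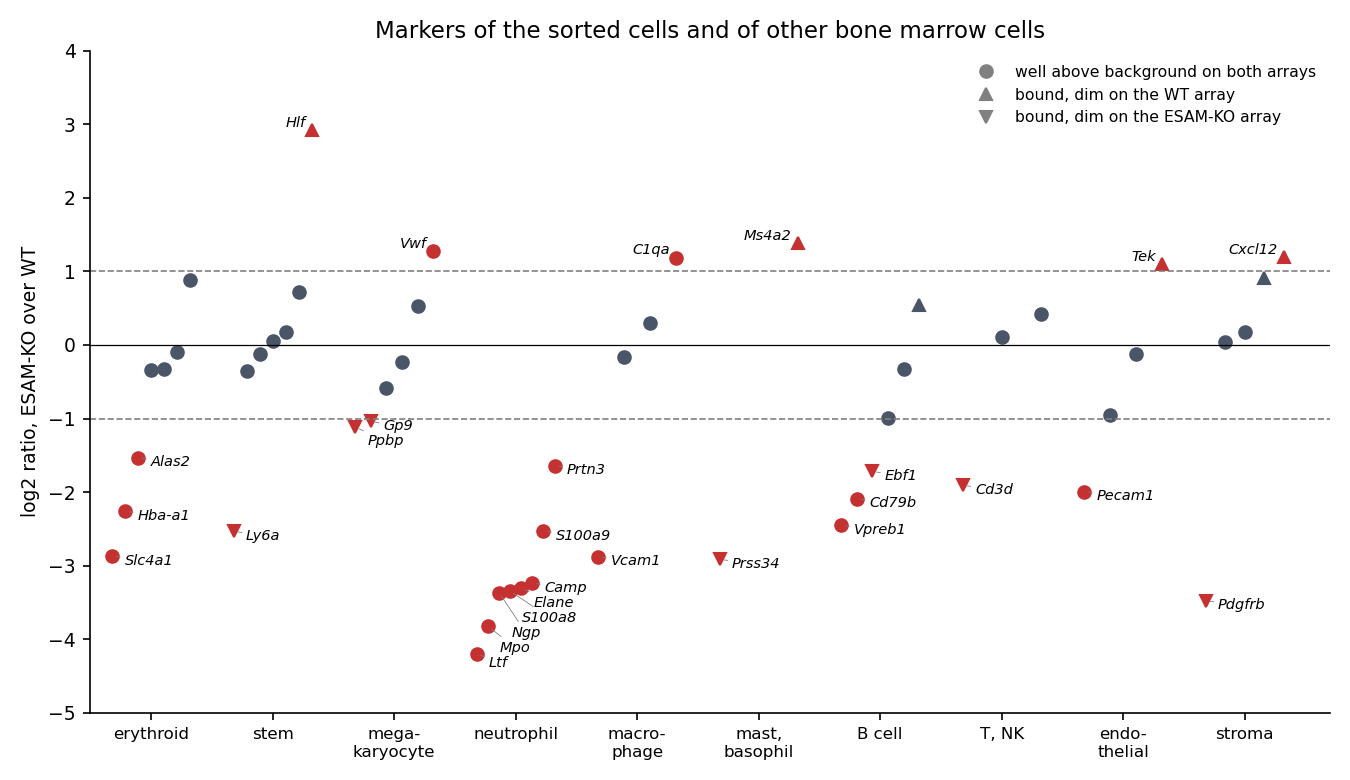
Log2 ratio of ESAM-KO over WT for markers of the sorted cells and of other bone marrow cells that had a ratio, in increasing order within each list. Triangles are bounds, dashed lines mark 2-fold and red points lie past it. All 8 neutrophil markers lie below the lower line, also without scaling, and some of the erythroid markers do.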

How the data were processed

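Both 1-colour Agilent mouse arrays shared a slide and a scan. Per the file headers the authors used Agilent Feature Extraction (10.10.1.1), whose deposited output gives for every spot a background-subtracted intensity, its error and flags, with no scaling between arrays. The deposited value table holds the same intensity rounded. Here the log2 intensity was used after the 75th percentile of the array's 59305 non-control spots had been subtracted, whereas the deposited values are not on the log2 scale. Outlier spots (254 in all, 1 of them for Hoxa11) were left out, no spot was saturated, and spots of a probe were averaged. A probe was detected where more than 50% of its spots were well above background, and the probe of highest mean signal stood for a gene. A gene detected on 1 array got a bound, and none was given where it was under 1-fold. The limit was the lowest intensity well above background on the other array, or the gene's own reading there if higher. Accessions were matched to RefSeq (GRCm38.p6, names only; the array design uses mm9), which named 48.9% of the probes. Probes named only by a region were not used here.

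The study compared the groups by a 2-fold criterion, which was kept, and with 1 array per genotype no test was run. All detected Hox genes, all TALE cofactors and list members past 2-fold are named by a fixed rule, except for 3 genes that are counted but not reported here by name or drawn in the gene plots, and further list members were picked with their values in view. The Hox genes, 6 partner lists and 10 marker lists were chosen with earlier results of these data known. Alternatives were other scalings, normexp (offset 50, on median spot signals, as the files hold no mean signal) with quantile normalization, the deposited value table, other detection rules, the mean over a gene's probes, the outlier spots left in, and thresholds of 1.5-fold and 3-fold. Python 3.11.15 with pandas 2.3.3 and numpy 2.4.6, and limma 3.58.1 in R 4.3.3, served for the computing. The counting was run on simulated data, with larger changes in brighter genes than most Hox genes here. That run therefore says nothing about changes near 2-fold in dim probes. Depth is limited by the number of arrays.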

Additional observations from a re-analysis of the deposited data

How the results depend on the processing

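Of the 144 values of Hox genes under the alternatives, 122 moved by less than the scanner error and 22 moved further, 13 of them without scaling, 8 with normexp and 1 (Hoxa9) with the mean of the probes. Most of the 122 were fixed in advance, so their number is no measure of robustness. The 2 other scalings shift all ratios alike, by less than any of these errors. The deposited value table is the same intensity rounded. These genes were read from single spots, so the rule on every spot and the outlier spots could not change them. The number of Hox genes more than 2-fold higher, 2 as reported, was 0 with normexp and 0 at 3-fold. The number more than 2-fold lower, 0 as reported, was 1 with each array set to its median (Hoxa3), 4 with no filter on dim probes (Hoxa2, Hoxb6, Hoxc4 and Hoxc10) and 5 at 1.5-fold. The median log2 ratio of the family, -0.11 as reported, was 0.21 without scaling, which by construction shifts all genes alike. With the flag for a positive and significant signal in place of well above background, 27 Hox genes were detected on each array in place of 16 and 15. Over all named genes, 988 were past 2-fold upward and 1191 downward. These became 1804 and 729 without scaling, 236 and 486 with normexp, 1800 and 2308 with no filter on dim probes, 2209 and 2485 at 1.5-fold, and 317 and 504 at 3-fold. Of the genes past 2-fold, 54.7% were lower, and this was 28.8% without scaling, 66.8% with each array set to its median and 67.3% with normexp. Setting each array to its median moved the median log2 ratio of all genes by -0.13, leaving out the filter on dim probes moved it by -0.14, and leaving out the scaling moved it by 0.31. The offset of the normexp setting is added to every intensity, which by construction shrinks the ratios of dim probes most. How much of the fall in the counts with normexp came from it was not tested. Apart from what the scaling, the filters and this offset do by construction, the cause was not tested. No paired analysis was possible because there is only 1 array of each genotype. Most Hox genes lay near the background, where the scanner error of a ratio is widest, and no value here has a replicate.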
